A study of Mus musculus with 24 samples.

Results

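Night was set against day within the pineal glands of Neurod1 conditional knockout mice (cKO). The comparison used 6 of the 24 arrays of the series, namely 3 arrays of cKO glands collected at ZT20 and 3 of cKO glands collected at ZT6, as the titles of the samples assign them. Zeitgeber time (ZT) is counted in hours after the lights come on, and the animals lived under 12 h of light and 12 h of darkness, so that ZT20 lies in the night and ZT6 in the day. All genes were members, and each of 18193 genes was represented by 1 probe set, the one with the highest mean signal over the 24 arrays. Of these genes 11933 were tested, because their signal exceeded the array's median in 3 or more of the 12 pineal arrays. Each array held RNA of 6 pooled glands from mice of both sexes, 2 months old, on the C57BL/6J strain, and ZT20 glands were taken under dim red light. The cKO mice carried 2 floxed NeuroD1 alleles and 1 copy of a Crx-Cre transgene, and control mice carried the same floxed alleles with no Cre. Crx drives Cre in photoreceptors and pinealocytes, so other cells of the gland keep the gene, and Cre acts in the retina too. Control glands at ZT20 and ZT6 (3 pools each) and cKO retinas at ZT20 and ZT6 (3 pools each), of the same age and strain, are given where they show how the night change of cKO glands differed. The labels call the pools biological replicates, so a p-value here measures the spread between pools and not between single mice.

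The pineal gland turns darkness into the hormone melatonin. At night sympathetic nerve endings release noradrenaline onto pinealocytes, beta-adrenergic receptors and adenylyl cyclase raise cAMP, and protein kinase A and the factor CREB switch on genes through cAMP response elements. In rodents the best known of these is Aanat, whose enzyme acetylates serotonin on the way to melatonin, although C57BL/6J mice are known to carry a defective Aanat allele and to make little of the hormone. Pinealocytes share a lineage with retinal photoreceptors and express many phototransduction genes under the homeobox factors Otx2 and Crx. They also run a circadian clock in which CLOCK and BMAL1 activate Per, Cry and Nr1d genes through E-boxes and are repressed by the products. Neurod1 encodes a basic helix-loop-helix transcription factor of pinealocytes, photoreceptors, other neurons and islet cells.

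Signals are given in the units of the deposited array values, which are linear. Trimmed means (over the 2nd to 98th percentile of probe sets) ran from 548 to 710 on the ZT20 arrays of cKO glands and from 643 to 687 on their ZT6 arrays, with ZT20 pool 1 the dimmest. Across probe sets, r between arrays of the same pineal group was 0.989 to 0.992. For Actb, the array's 3' control probe set over its 5' one, a sign of RNA length, gave log2 ratios of 1.34 to 1.50 on the ZT20 arrays and 1.08 to 1.29 on the ZT6 arrays of cKO glands, which did not overlap, whereas those of Gapdh did (0.40 to 0.44 and 0.36 to 0.49). The part of RNA length in any night change was not tested.

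The deleted gene was examined first. Neurod1 gave signals of 22.5, 1897 and 960.0 in the ZT20 pools of cKO glands, against 83.5, 29.1 and 30.9 in their ZT6 pools. Control glands averaged 3622 at ZT20 and 4974 at ZT6. ZT20 pool 1 thus stood at 0.621% of the control mean of that time, but pool 2 at 52.4% and pool 3 at 26.5%, while the 3 ZT6 pools stood at 0.585% to 1.68%. The other probe set of Neurod1 stood at 42.1% and 20.1% of control in those 2 pools and at most 0.798% in the other 4. These 2 libraries go against their genotype label and are called the libraries labelled cKO ZT20 pool 2 and pool 3 where a result turns on them. The night difference of Neurod1, 2.78 ± 0.90 (log2, ± SE, limma, adjusted p = 0.0429), rests on these pools: it was -0.52 ± 0.30 (adjusted p = 0.297) without them, and the ZT20 and ZT6 pools overlapped. Gnat1, the rod transducin, stood apart in another library. It gave 151, 447 and 620.5 in the ZT20 pools, against 115, 76.9 and 2234 in the ZT6 pools, where pool 3 was far above the others. Gnat1 was not alone there. Over all 18193 genes, tested or not, 22 were at least 4-fold above both other pools of the group in ZT6 pool 3, and cKO retinas at ZT6 read 19 of them at least 4-fold above those pools too. The counts were 11 and 10 in ZT20 pool 3, 4 and 0 in ZT6 pool 1, 1 and 0 in ZT6 pool 2, and 0 and 0 in ZT20 pools 1 and 2. Examples in ZT6 pool 3 are Isl1, a homeobox factor of retinal neurons, with 354.8 beside 10.4 and 10.5 in pools 1 and 2, and Nefl, the light neurofilament, with 208.8 beside 4.2 and 7.7, both below the signal filter. Results are therefore given also without ZT20 pools 2 and 3, which leaves 1 array at that time whose spread is taken to be that of the other groups, or without pool 3 of both ZT6 pineal groups, wherever this changes a call.

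Night and day differed for 2174 genes in cKO glands (18.2% of those tested) at an adjusted p under 0.05, which is the meaning of "passed" throughout. At ZT20 1019 genes were higher (8.54%) and 1155 lower (9.68%). Most differences were small, with a median size of 0.47 (log2) among the higher and 0.43 among the lower genes. At least 2-fold changes were found for 139 higher (1.16%) and 65 lower genes (0.545%), and at least 4-fold changes for 21 higher and 5 lower ones. The largest rise was 4.23 and the largest fall -2.65. For 4180 genes (35.0%) the 3 ZT20 values lay all above or all below the 3 ZT6 values. An exact permutation test of 3 pools against 3 cannot give a p below 0.1, so the calls rest on the limma fit across all genes. Without ZT20 pools 2 and 3 the fit called 548 higher and 607 lower genes, of which 997 were called in the same direction with all pools. Pool 1 of ZT20 and pool 1 of ZT6 also carried many calls, since 1385 and 1382 genes passed when 1 of them was left out. The split between higher and lower genes depended on scaling: quantile normalisation gave 46.9% higher among the called genes, median centring 33.8% (558 higher, 1091 lower) and the signals as deposited 25.8% (354 higher, 1018 lower). On the deposited scale the median over all tested genes was -0.15, against -0.03 after quantile normalisation, and list medians are read against that of all genes. List counts are likewise read against the 18.2% of all tested genes that passed.

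**Figure D1:**
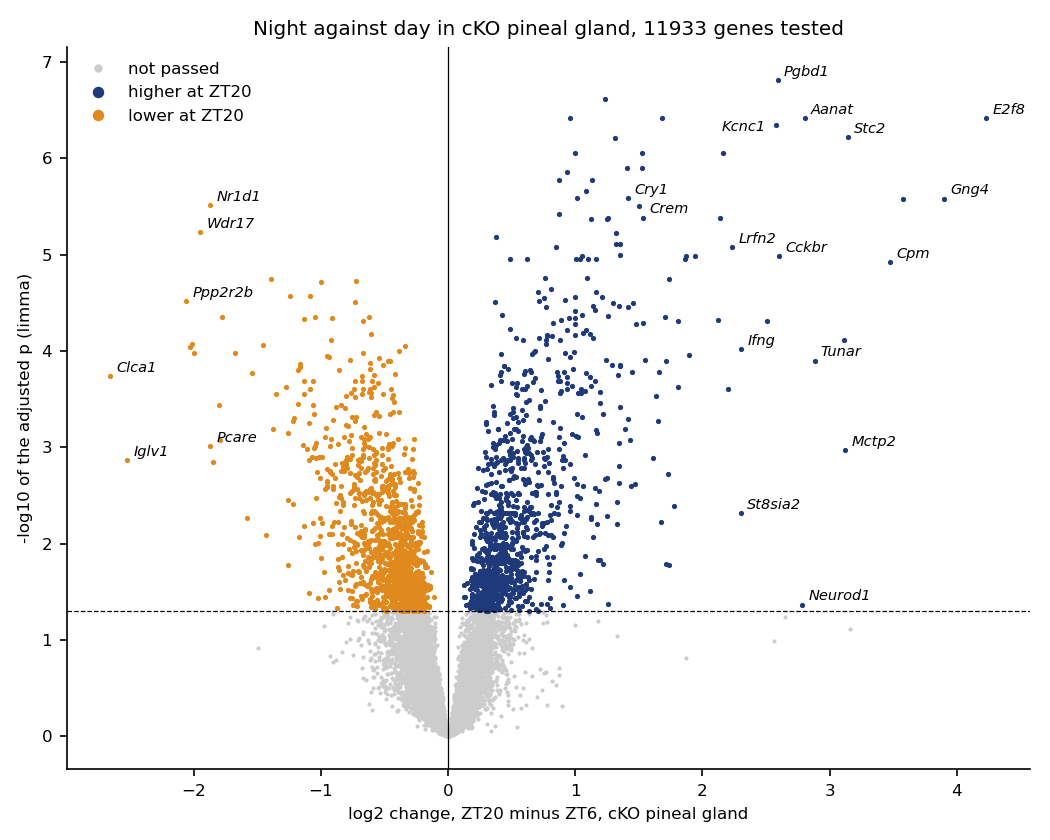
Each point is 1 of the 11933 genes tested in cKO pineal glands, with the log2 change (ZT20 minus ZT6) on the x axis and -log10 of the adjusted p from limma on the y axis. Dark blue points passed as higher at ZT20 (1019 genes), orange points as lower (1155 genes), and the dashed line marks the threshold of 0.05. The rises reach 4.23 (E2f8), further from 0 than the falls, which reach -2.65 (Clca1).

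In melatonin synthesis Aanat rose and most other steps did not pass. Of 13 tested genes of the pathway and its cofactor supply 2 were higher, 1 was lower and 10 did not pass, near the 18.2% called over all genes, with a median of -0.021. Aanat gave 3639, 4189 and 5152 in the ZT20 pools, against 832, 536 and 558 in the ZT6 pools of cKO glands. Every night pool was thus more than 4 times as bright as any day pool, and the change was 2.81 ± 0.18 (adjusted p = 3.81e-07). Tph1, which hydroxylates tryptophan in the first step, was among the brightest genes at both times, with 12169, 12071 and 12070.0 at ZT20 and 12033, 11606 and 11545 at ZT6, a difference of 0.062 ± 0.04 that did not pass (adjusted p = 0.288). Ddc, which makes serotonin from 5-hydroxytryptophan, gave 9018, 9282 and 10058 at ZT20 and 10191, 10012 and 9374 at ZT6, and the pools overlapped (-0.023, adjusted p = 0.733). The probe sets of Ddc disagreed, since the dimmer one gave 1067, 1030.5 and 1775 at ZT20, against 3005, 2934 and 2950.0 at ZT6, and passed as lower (-1.08 ± 0.14, adjusted p = 1.67e-04). Gch1, the first enzyme in the synthesis of the hydroxylase cofactor tetrahydrobiopterin, fell by 0.47 ± 0.06 (adjusted p = 1.27e-04), with 3755, 4263 and 5158 in the ZT20 pools, against 6393, 6911 and 5892 in the ZT6 pools. Qdpr, which recycles that cofactor, was higher by 0.23 ± 0.06 (adjusted p = 0.0133) after normalisation, although its deposited signals overlapped, and it did not pass on the signals as deposited (adjusted p = 0.37) or after median centring (adjusted p = 0.0992). Pts, Spr and Pcbd1 of the same cofactor pathway, the monoamine oxidases Maoa and Maob, and Gchfr, Mat2b and Ahcy did not pass, with changes between -0.16 (Pcbd1) and 0.33 (Gchfr). Asmt and Mat2a were not analysed here.

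**Figure D2:**
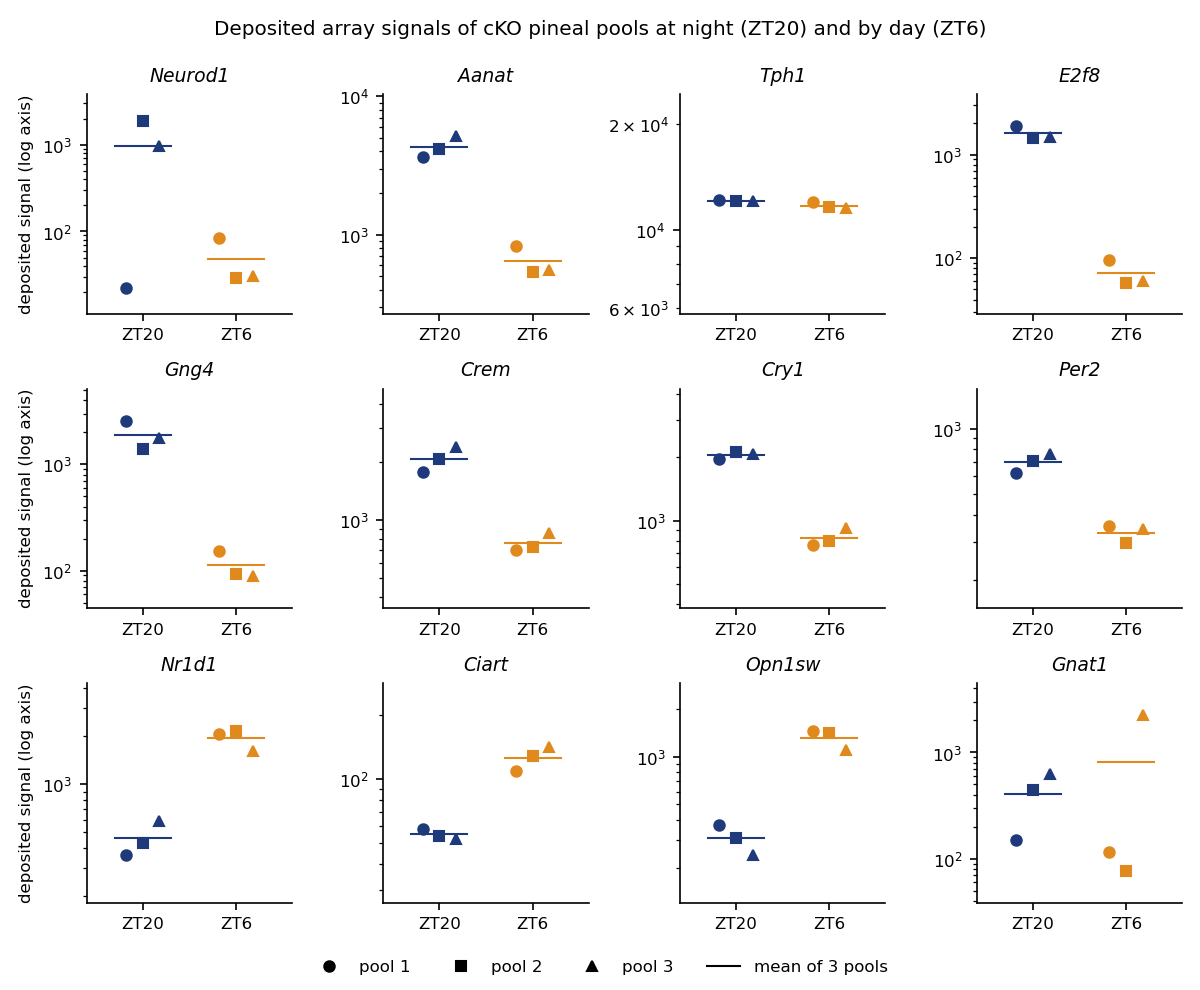
Deposited signal (log axis) of 12 genes in the single pools of cKO pineal glands, with ZT20 in blue on the left and ZT6 in orange on the right of each panel; circles, squares and triangles are pools 1, 2 and 3, and lines are the means of 3 pools. Aanat, E2f8, Gng4, Crem, Cry1 and Per2 are higher and Nr1d1, Ciart and Opn1sw lower in every night pool, Tph1 is nearly level, Neurod1 is high in ZT20 pools 2 and 3 and Gnat1 in ZT6 pool 3.

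Genes of adrenergic and cAMP signalling were tested next. Of 32 tested members 11 were higher and 1 was lower at night, where 8.54% and 9.68% of all genes were, and the median was 0.11. Adra1b encodes the alpha-1B adrenergic receptor of pinealocytes. It gave 222, 250.1 and 259 in the ZT20 pools, against 80.9, 66.6 and 55.3 in the ZT6 pools, a rise of 1.71 ± 0.19 (adjusted p = 4.39e-05). Phosphodiesterases, which break cAMP down, made up 6 of the 11 rises, and Pde3b was the 1 tested member of this family that did not pass. Pde10a gave 660.4, 610.0 and 722 at ZT20, against 312, 219.5 and 313 at ZT6 (1.29 ± 0.17, adjusted p = 1.40e-04). Pde7b gave 912, 1320.1 and 1424 at ZT20, against 578, 568 and 545 at ZT6 (1.19 ± 0.17, adjusted p = 2.65e-04). Pde4b rose by 0.99 ± 0.12 (adjusted p = 1.03e-04), and Pde4d, Pde8b and Pde8a by 0.88, 0.60 and 0.38. The member that fell was Adcy1, a calcium-sensitive adenylyl cyclase. It gave 64.8, 73.3 and 102 in the ZT20 pools, against 301, 236 and 582 in the ZT6 pools (-1.80 ± 0.27, adjusted p = 3.66e-04). The night and day pools of Adra1b, Pde10a, Pde7b and Adcy1 did not overlap. The list held 8 higher members and 1 lower one without ZT20 pools 2 and 3, and 7 and 1 on the signals as deposited.

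Transcription factors and other early genes that answer to cAMP rose in part. Of 28 tested members 12 were higher and 3 lower, beside 8.54% and 9.68% over all genes, and the median was 0.31. Nr4a1, an orphan nuclear receptor, gave 367, 446 and 493 in the ZT20 pools, against 97.2, 155 and 95.1 in the ZT6 pools (1.86 ± 0.18, adjusted p = 1.10e-05). Crem encodes activators and, from an internal promoter, the repressor ICER, which limits cAMP-driven transcription in the pineal gland. It gave 1768, 2066 and 2386 at ZT20, against 698, 725 and 861 at ZT6 (1.53 ± 0.13, adjusted p = 4.11e-06), and no night pool reached down to a day pool. Dusp1, a phosphatase of MAP kinases, gave 2397, 2740.2 and 2590.1 at ZT20, against 982, 1242 and 1153 at ZT6 (1.30 ± 0.14, adjusted p = 3.17e-05). Nr4a3 rose by 1.18 ± 0.23 (adjusted p = 0.00286) and Fosl2, a partner of Jun in the AP-1 factor, by 1.16 ± 0.11 (adjusted p = 1.10e-05). The 3 members that fell were Klf9, Klf10 and Ppargc1a. Klf9, a factor that also answers to glucocorticoids, had -0.24 ± 0.07 (adjusted p = 0.0309). Of 27 members tested by limma without ZT20 pools 2 and 3, 10 were higher and 0 lower, and Klf9 had an adjusted p of 0.428.

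A list of genes known to be induced at night in the rat pineal gland, which shares 7 of its genes with the cAMP-responsive list and 4 with the adrenergic one, was read in the same way. Of 23 tested members 15 were higher, 1 (Gch1) was lower and 7 did not pass, beside 8.54% higher and 9.68% lower over all genes. The median was 0.99, the highest of the 18 pathway lists. The members of all lists were chosen with earlier results of these data known, so this rank is no separate support. Dio2, the deiodinase that activates thyroid hormone, gave 1119.8, 955 and 1529 in the ZT20 pools, against 527, 960.2 and 245 in the ZT6 pools. ZT6 pool 2 was as bright as the dimmest night pool, and the change was 1.33 ± 0.30 (adjusted p = 0.00621), or adjusted p = 0.0549 without ZT20 pools 2 and 3. Irs2, an adaptor of insulin signalling, gave 216, 342 and 221 at ZT20, against 134, 162 and 122 at ZT6 (0.88 ± 0.21, adjusted p = 0.0103), with an adjusted p of 0.0798 without those pools. Camk1g, a calmodulin-dependent kinase, did not pass (0.29, adjusted p = 0.167). The list had 12 higher members and 1 lower one without ZT20 pools 2 and 3, and its median was 1.02.

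Promoter windows of RefSeq (build GRCm38.p6, 300 bases, from 250 before to 50 after the annotated start) were searched for letters that cAMP and clock factors are known to bind. The search took TGACGTCA (the full cAMP response element), its half-site TGACG outside the full element, CACGTG (the E-box of CLOCK and BMAL1) and TTATGTAA (the D-box), on both strands. The full element was found for 46 of 809 higher genes with a window (5.69%), 20 of 947 lower genes (2.11%) and 350 of all 9670 tested genes with one (3.62%). Over the 27025 genes of the promoter table the share was 2.03%. The half-site stood in 39.1% of higher, 31.3% of lower and 33.2% of all tested genes. Among changes of at least 2-fold these shares were otherwise. The full element was found for 6 of 108 higher genes (5.56%) and 3 of 52 lower genes (5.77%), and the half-site for 27.8% of higher and 19.2% of lower genes. Shares of the E-box were close to each other, 13.3% for higher, 13.3% for lower and 11.5% for all tested genes, and the D-box was rare (0.989%, 0.634% and 0.59%). These are counts of letters, with no test, and a gene counts if any of its windows holds the motif. Dusp1 and Dio2 are shown as night-high genes whose window holds a full element, with that element, half-sites and E-boxes in capitals, 5′ to 3′. The Dusp1 window (chr17:26508423-26508722 on the minus strand) has 1 full element, 1 half-site and 1 E-box, and the Dio2 window (chr12:90738989-90739288 on the minus strand) 1 full element.
Dusp1: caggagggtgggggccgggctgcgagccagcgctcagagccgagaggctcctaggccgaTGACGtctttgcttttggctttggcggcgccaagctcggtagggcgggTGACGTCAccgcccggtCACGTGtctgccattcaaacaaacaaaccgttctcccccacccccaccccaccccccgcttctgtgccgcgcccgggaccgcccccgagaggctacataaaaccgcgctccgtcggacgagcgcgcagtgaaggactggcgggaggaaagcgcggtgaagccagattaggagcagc
Dio2: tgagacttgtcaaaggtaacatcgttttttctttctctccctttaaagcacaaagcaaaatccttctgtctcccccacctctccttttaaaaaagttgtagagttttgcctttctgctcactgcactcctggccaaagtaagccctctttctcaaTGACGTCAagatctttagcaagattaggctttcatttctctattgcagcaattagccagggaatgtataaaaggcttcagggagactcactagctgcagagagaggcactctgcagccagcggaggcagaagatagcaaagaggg

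Clock repressors moved in both directions. Of 11 tested repressors of the clock loop 4 were higher at night, 3 were lower and 4 did not pass, with a median of 0.07. Over all tested genes 8.54% were higher and 9.68% lower. Cry1, which represses CLOCK and BMAL1, gave 1952, 2110.4 and 2073 in the ZT20 pools, against 765, 795 and 925 in the ZT6 pools (1.42 ± 0.12, adjusted p = 2.56e-06). Per2 gave 623, 705 and 762 at ZT20, against 354, 295 and 342 at ZT6 (1.14 ± 0.13, adjusted p = 3.37e-05). Per1, whose promoter is known to answer to cAMP as well, gave 589.7, 666 and 675 at ZT20, against 307, 446 and 283 at ZT6 (1.00 ± 0.16, adjusted p = 7.58e-04). In these 3 genes every night pool was above every day pool. Nr1d1, the nuclear receptor REV-ERB alpha that represses Arntl, moved the other way, with 361, 429 and 592 at ZT20, against 2066, 2146 and 1612 at ZT6 (-1.87 ± 0.16, adjusted p = 3.03e-06). Ciart, a circadian repressor also called Chrono, gave 58.1, 54.0 and 52.3 at ZT20, against 109, 128 and 141 at ZT6 (-0.91 ± 0.20, adjusted p = 0.00657), with an adjusted p of 0.114 without ZT20 pools 2 and 3. Nfil3, a repressor at D-boxes, was at 0.38 ± 0.10 (adjusted p = 0.0155) and Nr1d2 (REV-ERB beta) at -0.19 ± 0.06 (adjusted p = 0.0365), and both missed the threshold on the signals as deposited (adjusted p = 0.428 and 0.0669) and without ZT20 pools 2 and 3 (0.132 and 0.255). Per3 (0.086), Cry2 (0.064), Bhlhe40 (-0.15) and Bhlhe41 (0.073) did not pass (adjusted p = 0.477 to 0.849).

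Of 17 tested clock activators and output genes, a list that holds Ciart too, 1 was higher, 2 (Ciart and Dbp) were lower and 14 did not pass (median -0.018). The called share was near the 18.2% over all genes. Dbp, an activator at D-boxes, gave 1465, 1965 and 2013 in the ZT20 pools, against 2745, 3086 and 2504 in the ZT6 pools (-0.47 ± 0.11, adjusted p = 0.00786). Arntl, which encodes BMAL1, gave 1310.1, 1343 and 1895 at ZT20 and 1853, 1929 and 1716 at ZT6, and its change of -0.14 ± 0.09 did not pass (adjusted p = 0.311). Clock (-0.13), Npas2 (-0.092) and Tef (-0.086) did not pass either (adjusted p = 0.197 to 0.708). The higher member was Csnk1d, a kinase of PER proteins (0.18 ± 0.06, adjusted p = 0.046), which lost its call in 17 of the 22 other settings tried. The promoter windows of Per1, Cry1 and Ciart each hold an E-box and are shown because these repressors stood on both sides of the day. The Per1 window (chr11:69098699-69098998 on the plus strand, the first of 2) has 1 E-box and 1 half-site, the Cry1 window (chr10:85185005-85185304 on the minus strand) 1 of each, and the Ciart window (chr3:95882179-95882478 on the minus strand) 3 E-boxes.
Per1: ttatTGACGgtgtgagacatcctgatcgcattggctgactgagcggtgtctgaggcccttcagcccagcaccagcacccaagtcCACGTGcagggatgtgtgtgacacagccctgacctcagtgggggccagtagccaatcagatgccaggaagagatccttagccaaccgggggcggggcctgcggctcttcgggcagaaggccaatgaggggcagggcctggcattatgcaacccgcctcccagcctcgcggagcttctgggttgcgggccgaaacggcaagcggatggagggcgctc
Cry1: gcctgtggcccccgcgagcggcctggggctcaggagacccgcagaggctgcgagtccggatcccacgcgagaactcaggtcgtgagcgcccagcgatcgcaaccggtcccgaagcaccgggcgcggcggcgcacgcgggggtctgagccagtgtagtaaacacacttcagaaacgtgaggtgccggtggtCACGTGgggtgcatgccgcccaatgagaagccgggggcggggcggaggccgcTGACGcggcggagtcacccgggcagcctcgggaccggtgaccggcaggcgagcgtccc
Ciart: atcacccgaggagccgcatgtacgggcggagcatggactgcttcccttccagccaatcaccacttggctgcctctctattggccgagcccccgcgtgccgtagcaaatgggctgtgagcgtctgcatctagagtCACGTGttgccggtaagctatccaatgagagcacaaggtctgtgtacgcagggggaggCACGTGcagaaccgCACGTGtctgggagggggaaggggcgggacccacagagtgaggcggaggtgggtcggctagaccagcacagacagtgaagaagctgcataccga

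The 15 largest rises among genes whose pools did not overlap were led by E2f8, an atypical E2F factor that represses cell cycle genes. It gave 1907, 1459.7 and 1471 in the ZT20 pools, against 96.2, 58.2 and 59.8 in the ZT6 pools, so that every night pool was above 1400 units and no day pool reached 100 (4.23 ± 0.28, adjusted p = 3.81e-07). Gng4, a gamma subunit of G proteins, gave 2561, 1388 and 1754 at ZT20, against 154, 93.7 and 88.3 at ZT6 (3.90 ± 0.32, adjusted p = 2.61e-06). Cpm, a carboxypeptidase at the cell surface, gave 1011, 620.1 and 442 at ZT20, against 48.4, 53.1 and 37.8 at ZT6 (3.47 ± 0.34, adjusted p = 1.18e-05). The secreted glycoprotein gene Stc2 gave 976, 1199 and 987 at ZT20, against 119, 88.5 and 114 at ZT6 (3.14 ± 0.22, adjusted p = 5.99e-07). Its night pools were close to each other, unlike those of Mctp2, a membrane protein with calcium-binding C2 domains. Mctp2 gave 989, 151 and 320.2 at ZT20, against 36.5, 28.2 and 27.8 at ZT6, and its change of 3.12 ± 0.53 (adjusted p = 0.00106) was 4.64 ± 0.51 without ZT20 pools 2 and 3.

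Tunar, a gene of neural cells first described as a long noncoding RNA, gave 826, 753 and 409 at ZT20, against 65.1, 63.0 and 98.6 at ZT6 (2.88 ± 0.37, adjusted p = 1.26e-04). Cckbr, the cholecystokinin B receptor, gave 297, 662 and 842 at ZT20, against 77.3, 105 and 62.0 at ZT6 (2.61 ± 0.25, adjusted p = 1.03e-05), with ZT20 pool 1 the lowest of the night pools. Pgbd1, a gene derived from a piggyBac transposon, had the smallest adjusted p of the comparison (1.53e-07), with a rise of 2.59 ± 0.14 and signals of 886, 832 and 881 at ZT20, against 143, 128 and 133 at ZT6. The spread between its pools was small beside that gap. Kcnc1, the fast voltage-gated potassium channel Kv3.1, gave 1170.3, 1387 and 1247 at ZT20, against 229, 167 and 226 at ZT6 (2.57 ± 0.17, adjusted p = 4.51e-07). Gulo, the last enzyme of vitamin C synthesis in mice, rose by 2.51 ± 0.29 (adjusted p = 4.84e-05). Ifng, the cytokine interferon gamma, gave 116, 116 and 128 at ZT20, against 26.0, 4.30 and 15.9 at ZT6 (2.31 ± 0.29, adjusted p = 9.51e-05), and was dim even at night. St8sia2, which adds polysialic acid to the adhesion molecule NCAM, rose by 2.30 ± 0.49, Lrfn2, a synaptic adhesion protein, by 2.23 ± 0.21, and Slc6a5, the glycine transporter GlyT2, by 2.20 ± 0.31. All 15 genes passed also without ZT20 pools 2 and 3 and without pool 3 of the ZT6 groups.

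The 15 largest falls by the same rule were led by Clca1, a secreted regulator of chloride channels. It gave 33.9, 56.0 and 85.4 in the ZT20 pools, against 411, 519.8 and 550.0 in the ZT6 pools (-2.65 ± 0.36, adjusted p = 1.82e-04). The others are named with what they encode. Ppp2r2b, a neuronal regulatory subunit of the phosphatase PP2A, gave 347, 412 and 411 at ZT20, against 1716, 1499 and 2747 at ZT6 (-2.06 ± 0.22, adjusted p = 3.00e-05). Cacnb2, a beta subunit of voltage-gated calcium channels, gave 76.9, 101 and 137 at ZT20, against 531, 463 and 603 at ZT6 (-2.03 ± 0.25, adjusted p = 9.12e-05). Adgrb3, an adhesion receptor of synapses, gave 62.6, 62.0 and 61.1 at ZT20, against 316, 333 and 346 at ZT6 (-2.01 ± 0.25, adjusted p = 8.35e-05), and its 3 night pools lay within 2 units of each other. Nrxn3, a presynaptic adhesion protein, was the brightest of the 15, with 1070.3, 1071 and 1842 at ZT20, against 5408, 4799 and 4602 at ZT6 (-1.78 ± 0.20, adjusted p = 4.43e-05). The contactin Cntn4 (-1.995), the WD-repeat gene Wdr17 (-1.95), the relaxin Rln1 (-1.68) and Tafa3, a secreted chemokine-like protein (-1.54), fell as well (adjusted p = 5.80e-06 to 1.69e-04).

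Photoreceptor genes were also among the falls. Opn1sw, the short-wavelength cone opsin, gave 372, 306 and 240.3 in the ZT20 pools, against 1444, 1399 and 1098 in the ZT6 pools (-1.85 ± 0.33, adjusted p = 0.00143). No pools overlapped, and the adjusted p was 0.07 without ZT20 pools 2 and 3. Pcare, an actin regulator of photoreceptor cilia, gave 50.3, 42.6 and 94.9 at ZT20, against 280.1, 209 and 391 at ZT6 (-1.87 ± 0.31, adjusted p = 9.60e-04). The list also held 2 immunoglobulin light chain genes of B cells, which belong to a family of like sequences, so that probe sets may share targets. Iglv1 gave 56.4, 98.7 and 34.0 at ZT20, against 1100.3, 196 and 426 at ZT6 (-2.52 ± 0.45, adjusted p = 0.00136). Igll1, part of the receptor of B cell precursors, gave 49.8, 88.3 and 91.6 at ZT20, against 603, 177 and 193 at ZT6 (-1.58 ± 0.34, adjusted p = 0.00539). In both, ZT6 pool 1 was far above the other day pools. Without pool 3 of the ZT6 groups these 2 genes were below the signal filter and were not tested, and the other 13 passed. Their night pools lay below the array median, so both met the filter through the day pools of cKO glands, where they were high. The ZT20 pools of Clca1, Adgrb3 and Pcare also lay below the array medians. So did the ZT6 pools of E2f8, Stc2, Cpm, Mctp2, Tunar, Cckbr and Ifng. Within cKO glands these genes too met the filter only through the time at which they were high.

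Among transcription factors of pinealocytes and photoreceptors there were rises and falls. Of 15 tested members 2 were higher, 5 were lower and 8 did not pass, beside 8.54% higher and 9.68% lower over all genes. The median was -0.22. Isl2, a LIM homeobox factor, gave 486, 626 and 853 in the ZT20 pools, against 2021, 2118 and 1890.3 in the ZT6 pools (-1.45 ± 0.18, adjusted p = 8.69e-05). Rxrg, a retinoid receptor that represses cone opsin in mice, fell by 0.60 (adjusted p = 0.00261), and Pax6, needed for the gland to form, fell by 0.44 (adjusted p = 0.0022). Crx was 1 of the 2 higher members, with 10291, 10834 and 11390.0 at ZT20, against 8569, 8891 and 8171 at ZT6 (0.37 ± 0.04, adjusted p = 3.08e-05), and the other was Neurod1, whose values are given above. Otx2 gave 5051, 5958 and 6443 at ZT20, against 6972, 7137 and 6964 at ZT6 (-0.22 ± 0.05, adjusted p = 0.00963), a fall that did not pass after median centring (adjusted p = 0.0913).

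Of 17 tested phototransduction genes of pinealocytes 0 were higher and 4 lower by limma (median -0.07), beside 8.54% and 9.68% over all genes. Besides Opn1sw these were Gngt1, the gamma subunit of rod transducin, Guca1a, which regulates guanylyl cyclase, and Sag, an arrestin that switches off light-activated opsin. Gngt1 gave 1526, 2201 and 2121 at ZT20, against 2981, 3016 and 4459.6 at ZT6 (-0.68 ± 0.17, adjusted p = 0.012). Guca1a gave 2641, 2938 and 2317 at ZT20, against 3544, 3908 and 4901 at ZT6 (-0.52 ± 0.15, adjusted p = 0.0234). Sag was bright at both times, with 8435, 8732 and 9373 at ZT20, against 10466, 10489 and 10865 at ZT6 (-0.24 ± 0.05, adjusted p = 0.00236), and missed the threshold after median centring (adjusted p = 0.0964). On this list 1 member passed without ZT20 pools 2 and 3, and Gngt1 and Guca1a had adjusted p-values of 0.0551 and 0.232. Of 15 potassium channel genes 1 was higher (Kcnc1) and 3 were lower (median -0.27), beside 8.54% and 9.68% over all tested genes. Kcnk3, a leak channel, gave 62.0, 131 and 109 at ZT20, against 242, 219 and 136 at ZT6 (-0.79 ± 0.24, adjusted p = 0.0306). Kcnab1, an auxiliary subunit, gave 2241, 2397 and 2833 at ZT20, against 3785, 3527 and 3553 at ZT6 (-0.42 ± 0.08, adjusted p = 0.00261). Kcnd3 was at -0.19 ± 0.04 (adjusted p = 0.00853), and the mean over all its probe sets was 0.029 (adjusted p = 0.868). Gng4 was the sole member called among 15 tested G protein gamma and Rgs genes (median -0.013), as 14 did not pass.

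Metabolic and stress genes were read in the same way. Beside 8.54% higher and 9.68% lower over all genes, 8 of 18 tested genes of cholesterol synthesis were higher and 1 lower, with a median of 0.27. Mvk and Pmvk, which phosphorylate mevalonate, were among them. Mvk gave 942, 1244 and 924 in the ZT20 pools, against 458, 459 and 365 in the ZT6 pools (1.35 ± 0.18, adjusted p = 1.42e-04). Pmvk gave 3559.7, 3707 and 3947 at ZT20, against 1598, 2011 and 1464 at ZT6 (1.25 ± 0.11, adjusted p = 4.30e-06). Stard4, a carrier of cholesterol between membranes, gave 2875, 3488 and 3405 at ZT20, against 1377, 1392 and 1426 at ZT6 (1.32 ± 0.12, adjusted p = 5.93e-06). Idi1, which interconverts the isoprenoid building blocks, gave 1812, 2858 and 3110.1 at ZT20, against 1454, 1520.1 and 1322 at ZT6 (0.94 ± 0.13, adjusted p = 2.13e-04), with ZT20 pool 1 the lowest of the night pools. Dhcr7, the last enzyme of the pathway, was the member that fell. In this list 4 members were higher and 1 lower without ZT20 pools 2 and 3.

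Of 22 tested genes of the unfolded protein response 10 were higher and 0 lower (median 0.22), beside 8.54% and 9.68% over all genes. Sdf2l1, a chaperone partner in the endoplasmic reticulum, gave 524, 616 and 546 at ZT20, against 335, 359 and 288 at ZT6 (0.86 ± 0.18, adjusted p = 0.00486). Creld2, another protein of that compartment, was at 0.58 ± 0.10 (adjusted p = 8.56e-04), Xbp1, a transcription factor of the response, at 0.49 ± 0.08 (adjusted p = 0.00121), and Manf, a secreted stress protein, at 0.39 ± 0.09 (adjusted p = 0.0102). The deposited signals of the last 3 overlapped between night and day. This list depended on scaling and on pools, with 1 higher member on the signals as deposited, 3 after median centring and 3 of 21 without ZT20 pools 2 and 3. Of 16 heat shock and cold-inducible genes 3 were higher and 1 lower (median 0.09), where 18.2% of all genes passed. Cirbp, a cold-inducible RNA-binding protein, gave 2571, 2529 and 2764 at ZT20, against 3914, 3689.9 and 3649 at ZT6 (-0.39 ± 0.08, adjusted p = 0.00397), and Hspb1 (0.63), Chordc1 (0.36) and Hspa5 (0.19) were higher but did not pass on the signals as deposited (adjusted p = 0.0857 to 0.304).

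Of 26 genes of glucose and glycogen use 2 were higher and 4 lower (median -0.06), where 8.54% and 9.68% of all tested genes were. Ppp1r3c, which directs a phosphatase to glycogen, gave 2108, 2976 and 3769.8 at ZT20, against 5039.5, 5153 and 5259 at ZT6 (-0.72 ± 0.11, adjusted p = 4.88e-04), with ZT20 pool 1 the lowest. Pygl, a glycogen phosphorylase, was at -0.37 ± 0.10 (adjusted p = 0.0192), Pdk1, which inhibits pyruvate dehydrogenase, at -0.44 ± 0.13 (adjusted p = 0.0317), and Pfkfb3, a regulator of glycolysis, at -0.50 ± 0.17 (adjusted p = 0.0482). Of 14 glucocorticoid-responsive genes 2 were higher, Sult1a1 (0.49 ± 0.12, adjusted p = 0.0115) and Cdkn1a (0.40 ± 0.11, adjusted p = 0.0229), and 1 (Klf9) was lower, with a median of 0.013. The called share of this list was near the 18.2% over all genes. Of 24 cell cycle and E2f genes 6 were higher and 1 lower (median -0.03), beside 8.54% and 9.68% over all genes. Beside E2f8, E2f1 gave 1103, 1436 and 1572 at ZT20, against 919.7, 912 and 904 at ZT6 (0.70 ± 0.12, adjusted p = 0.00111). E2f3, another activating E2F factor, gave 3134, 3351 and 3851 at ZT20, against 2391, 2534 and 2534 at ZT6 (0.58 ± 0.08, adjusted p = 2.47e-04). Mcm2, a subunit of the replicative helicase, was the one that fell (-0.49 ± 0.12, adjusted p = 0.0131), and the proliferation marker Mki67 and Top2a, Cdk1 and Ccna2 did not pass. The 23 genes of oxidative phosphorylation and 12 ribosomal protein genes held 0 called members by limma, with medians of -0.0060 and 0.028. Their brightest members were level, as shown by Uqcrb, a subunit of complex III (12952, 12469 and 14094 at ZT20, 13957, 14127 and 12642 at ZT6, -0.015), and by Rpl10a (10659, 10816 and 11538 at ZT20, 11393, 11493 and 10669 at ZT6).

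**Figure D3:**
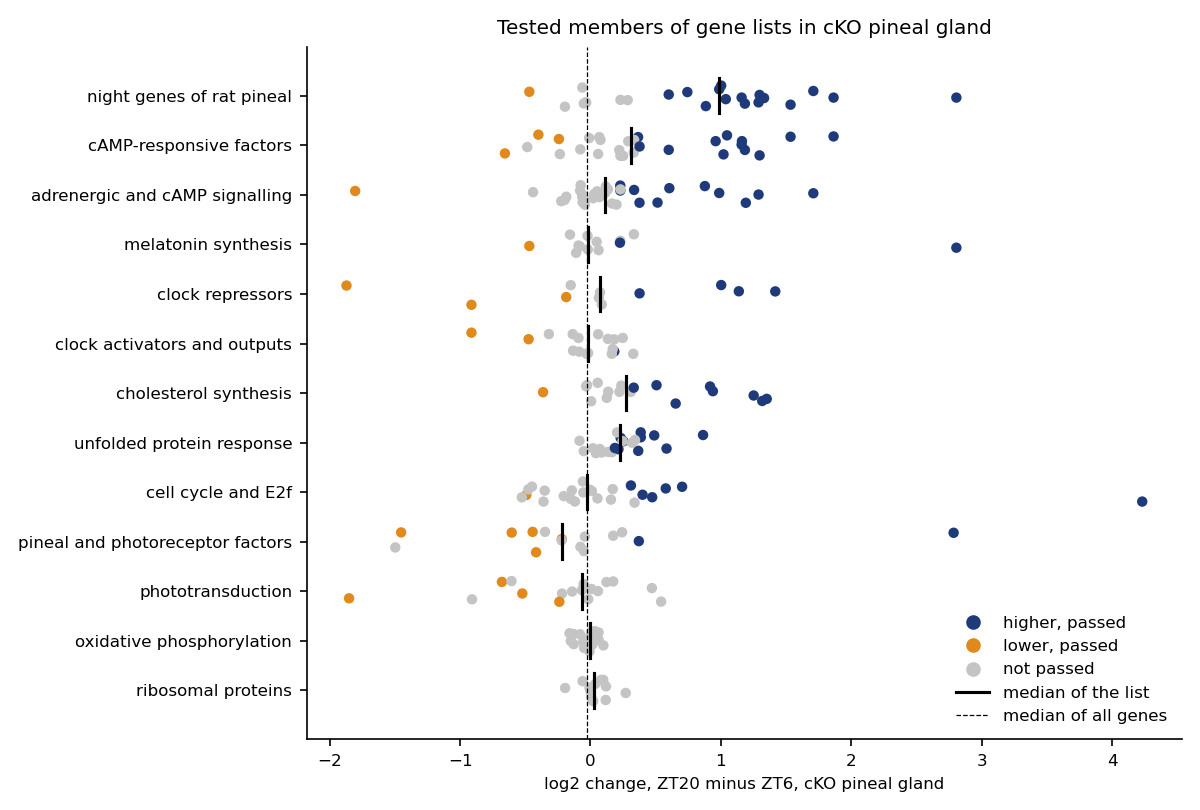
Each point is the log2 change (ZT20 minus ZT6, x axis) of 1 tested member of 13 gene lists in cKO pineal glands; blue members passed as higher, orange ones as lower, grey ones did not pass, black bars are list medians and the dashed line is the median of all genes. The rat pineal night genes have the median furthest right (0.99), and oxidative phosphorylation and ribosomal protein genes lie close to 0 with no called member.

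Markers of cell types were read for the identity of the tissue and for other cells. None of the 12 pinealocyte markers with a probe set lay below the array median in all pools of a cKO group, and their summed signal was 80056 to 91621 in the ZT20 pools and 85962 to 87005 in the ZT6 pools. Of these 12, 2 were higher (Aanat, Crx), 3 lower (Sag, Otx2, Gngt1) and 7 did not pass. In pooled tissue fewer cells of a type and less RNA per cell cannot be told apart. Of 103 tested markers of cells other than pinealocytes and rods 8 passed (Otx2, which the choroid plexus list shares, Fabp7, Slc17a6, Slc22a6, Aplnr, Lyz2, Igll1 and Cd8a). This was a smaller share than the 18.2% called over all tested genes. Slc17a6, a glutamate transporter of neurons and pinealocytes, gave 8139, 8012 and 9677 at ZT20, against 7630.2, 6609 and 6539 at ZT6 (0.35 ± 0.06, adjusted p = 8.96e-04). Fabp7, a lipid carrier of radial and astroglial cells, fell by 0.47 (adjusted p = 0.003, or 0.182 without ZT20 pools 2 and 3). The other 9 of the 10 astrocyte markers did not pass.

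Of 8 tested rod markers 3 fell, namely Pde6b (-0.73 ± 0.07, adjusted p = 1.87e-05), a subunit of the rod phosphodiesterase, Prph2 (-0.66) and Cngb1 (-0.41), which pinealocytes may express too. Over all tested genes 9.68% fell. The summed signal of 10 rod markers was 30525 to 34083 at ZT20 and 35160 to 35859 at ZT6, and of the 2 untested ones Pde6a was near background in every pool. The other, the rod channel Cnga1, gave 1.6, 28.3 and 17.0 in the ZT20 pools and 2.3, 1.1 and 157 in the ZT6 pools, so that it stood apart in ZT6 pool 3 with the retinal genes above. Without pool 3 of both ZT6 groups 3 of the 8 rod markers (median -0.25) and 3 of the 17 phototransduction genes (median -0.062) were lower. Choroid plexus markers had a median of -0.24, with 13 of 14 not passing and sums of 48039 to 62806 at ZT20 and 61123 to 68713 at ZT6. B and T cell markers summed to 863 to 1099.8 at ZT20, against 1186 to 1748 at ZT6, and of 5 tested Igll1 and Cd8a fell (-1.58 and -0.60), while Ms4a1, Vpreb1 and Cd79b did not pass. The part of these cells in the falls of Iglv1 and Igll1 was not tested. The 8 neutrophil and marrow markers did not pass, with a median of 0.61, though 3 of them did as higher on the signals as deposited, and their sums were 3822, 8943 and 3661 at ZT20, against 3444, 3674 and 3067 at ZT6. S100a8 gave 848, 2242 and 722 at ZT20 and 681, 694 and 606 at ZT6 (0.87, adjusted p = 0.233, or 0.0219 on the signals as deposited), with ZT20 pool 2 far above the rest. All 10 skeletal muscle markers stayed below the array median in every pool.

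Night changes of cKO glands were then set beside those of control glands, which are other arrays of the same fit. In control glands 3097 genes passed (26.0%), 1481 higher (12.4%) and 1616 lower (13.5%). Both genotypes called 723 genes as higher, which is 71.0% of the higher genes of cKO and 48.8% of those of control glands. They called 759 as lower (65.7% and 47.0%), and 6 genes passed in opposite directions. Of the 2174 genes called in cKO 2098 (96.5%) had the same sign in control glands, and across all tested genes, which are not independent, the changes correlated at r = 0.751. Where both passed, the change in cKO was a median 0.984 times that in control glands, and it was the larger one in 695 of 1482 genes. Genes whose change was lost or weak in 1 genotype are left out of this ratio. The ratio is thus no separate support for equal changes. The overlap, shared signs, correlation and ratio used all pools, with the libraries labelled cKO ZT20 pool 2 and pool 3 that carried Neurod1 signal. They were not computed without these 2 libraries, so they do not show the night change of glands without Neurod1. All 15 of the largest rises passed in control glands too. Aanat averaged 4326 ± 766 (SD, n = 3) at ZT20 in cKO and 4622 ± 1029.7 in control glands, and 642 ± 165 and 567 ± 164 at ZT6, so that its night change was 2.81 in cKO and 3.03 in controls. E2f8 changed by 4.23 and 3.96, and Gng4 by 3.90 and 4.33. Without ZT20 pools 2 and 3 the changes in cKO were 2.71 for Aanat, 4.64 for E2f8 and 4.51 for Gng4. Of the 15 largest falls 13 passed in control glands, and the exceptions were Iglv1 (-2.52 in cKO, -0.076 in control glands) and Igll1 (-1.58 and -0.14). Both met the signal filter through the cKO ZT6 pools, where they were high, so the filter shaped this contrast.

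The difference between the genotypes was tested itself, as the night change in cKO minus that in control glands. By limma 0 of 11933 genes passed (0.00%), with a smallest adjusted p of 0.0947, while 1164 had an unadjusted p under 0.05 (9.75%), of which 547 had a higher and 617 a lower night change in cKO. On the signals as deposited 43 genes passed, and after median centring 2. With ZT20 pools 2 and 3 left out, 0 passed. None of the 15 largest rises had an unadjusted p under 0.05 for this difference, and of the 15 largest falls Iglv1 (adjusted p = 0.3) and Igll1 (adjusted p = 0.355) did. As Iglv1 and Igll1 met the signal filter through the cKO ZT6 pools, they give no support for a difference between genotypes. Per3 is a clock repressor with a night fall in control glands (-0.55, adjusted p = 3.86e-04), beside 0.086 in cKO, and the difference of 0.63 had an adjusted p of 0.144. Per2 rose by 1.14 in cKO and 0.64 in control glands (difference 0.50, adjusted p = 0.389). Of 4 tested sex-linked genes 0 passed in cKO glands (median 0.027). In control glands 2 were lower at ZT20 (median -0.68), beside 13.5% of all tested genes, and 2 had an unadjusted p under 0.05 for the difference. Their control sums were 8665 to 8976 at ZT20 and 9673 to 12274 at ZT6. The part of the sex mix of the pools in the control and genotype results was not tested. Of 15 tested endothelial and mural markers 0 rose and 1 (Aplnr) fell in cKO glands. In control glands 7 rose, beside 12.4% of all tested genes, and 0 fell. For the difference 11 had an unadjusted p under 0.05, beside 9.75% of all tested genes, and the median was -0.49. Markers of 1 cell type in the same pools are not independent, so these counts are not separate results. Their sums in cKO were 21878 to 27709 at ZT20 and 24672 to 30437 at ZT6. In control glands they were 28131 to 35559 at ZT20 and 23947 to 29246 at ZT6. Of 8 neutrophil and marrow markers 5 had an unadjusted p under 0.05 for the difference, with a median of 1.51. Their median night change was 0.61 in cKO and -0.94 in control glands, and single pools stood apart. Sums were 8943 in cKO ZT20 pool 2, beside 3822 and 3661 in pools 1 and 3. In control ZT20 pool 1 the sum was 2206, beside 8125 and 7299.5 in pools 2 and 3.

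**Figure D4:**
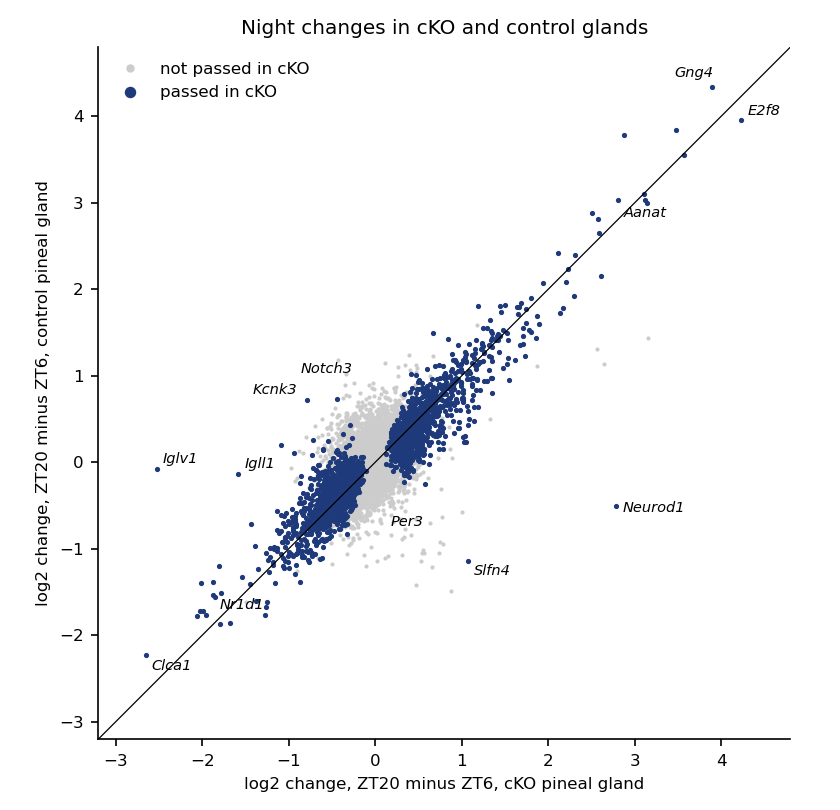
Log2 change (ZT20 minus ZT6) of each of the 11933 genes in cKO pineal glands (x axis) and control pineal glands (y axis), with genes that passed in cKO in blue, others in grey, and the line of equal change. Points follow the line up to E2f8 and Gng4, while Neurod1, Iglv1 and Igll1 lie away from it.

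The same contrast in the cKO retina asked which night changes differed between the tissues that carry the deletion. In the cKO retina 64 genes passed (0.536%), 31 higher (0.260%) and 33 lower (0.277%). The difference, pineal minus retina, passed for 491 genes (4.11%), of which 302 had a higher (2.53%) and 189 a lower (1.58%) night change in the pineal gland. Genes entered this fit by their signal in the pineal arrays alone, so one near background in the retina could show little change there. The fit was not run without pineal cKO ZT20 pools 2 and 3 together. The difference passed for 14 of the 15 largest rises and 13 of the 15 largest falls. These genes were chosen for large changes in the same pineal arrays, so the 2 counts are no separate support. The exception among the rises was Pgbd1, which rose by 2.59 ± 0.14 in the gland and by 2.05 (adjusted p = 1.23e-05) in the retina, a difference that did not pass (adjusted p = 0.375). Aanat changed by 2.81 in the gland and 0.20 in the retina (adjusted p of the difference = 2.68e-06). Of the clock repressors Cry1 changed by 1.42 in the gland and -0.074 in the retina (adjusted p = 2.68e-06), and Nr1d1 by -1.87 and -0.17 (adjusted p = 3.44e-05). Ciart fell in both, by 0.91 in the gland and 1.02 in the retina, a difference that did not pass (adjusted p = 0.882). Opn1sw, which both tissues express, changed by -1.85 in the gland and -0.30 in the retina (adjusted p = 0.0208).

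**Figure D5:**
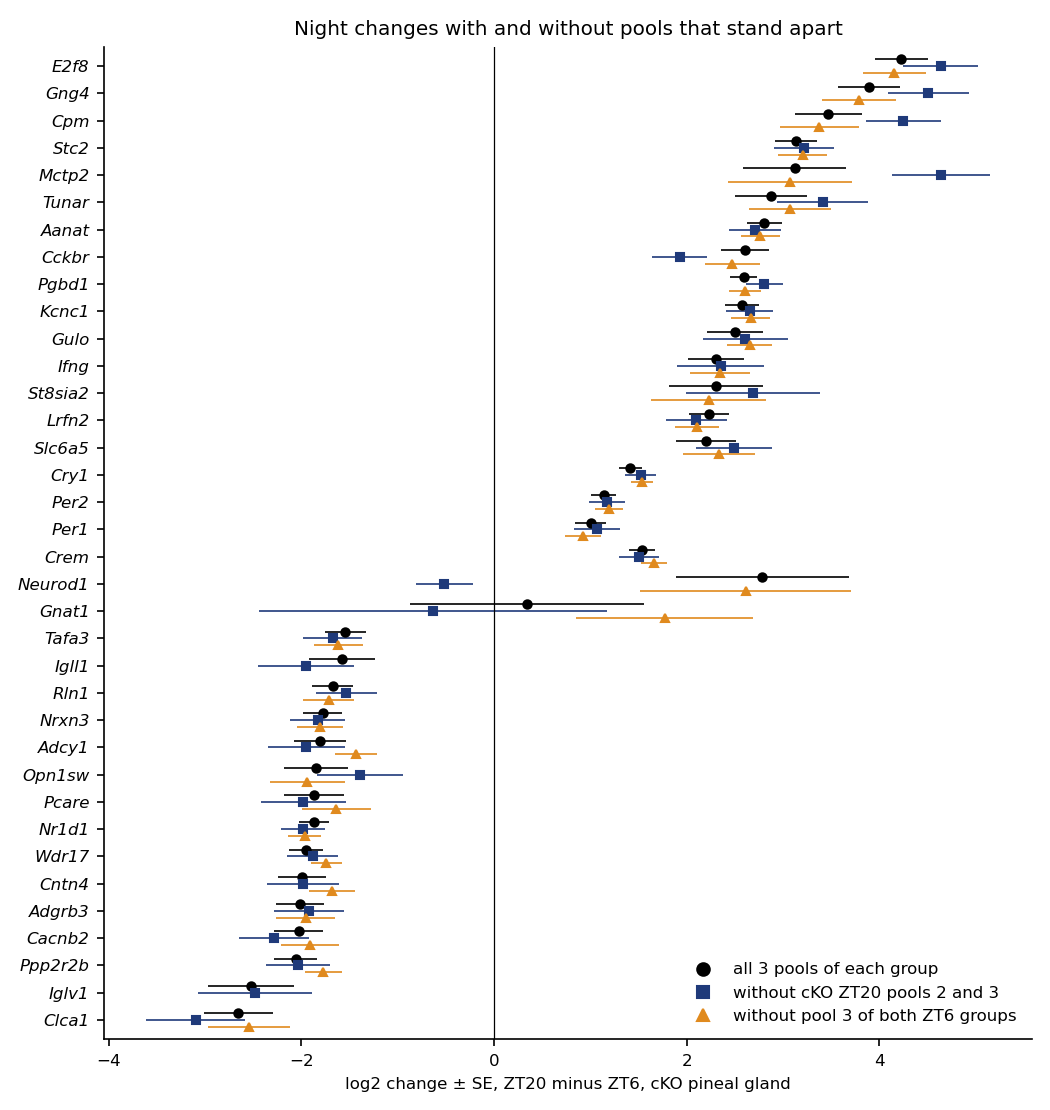
Log2 change ± SE (ZT20 minus ZT6, cKO pineal gland, limma) of the 15 largest rises, the 15 largest falls and 6 other genes with all 3 pools (black circles), without cKO ZT20 pools 2 and 3 (blue squares) and without pool 3 of both ZT6 pineal groups (orange triangles, absent where a gene was not tested). The changes keep their side of 0 apart from Neurod1, which is 2.78 with all pools and -0.52 without ZT20 pools 2 and 3, and Gnat1, whose error bars are wide.

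Most of the named genes did not turn on single pools. Of 131 named genes 94 passed with all pools, and 57 of these passed in every other setting in which they were tested. For 30 of the 57 that was all 22 settings, and for 27 it was fewer (at least 16), because a setting put them below the signal filter. Opn1sw was the one gene of the 30 largest changes that lost its call without ZT20 pools 2 and 3. Of the genes named above, Hspb1 (0.218), Cirbp (0.167), Hspa5 (0.298), Manf (0.159), Pdk1 (0.294), Pfkfb3 (0.181), Kcnab1 (0.066), Lyz2 (0.0795) and Cd8a (0.0795) also missed the threshold there (adjusted p in parentheses). Leaving out pool 3 of both ZT6 groups took the calls of Guca1a (0.117), Neurod1 (0.134), Pygl (0.059), Pdk1 (0.135), Pfkfb3 (0.0731), Sult1a1 (0.0605), Cdkn1a (0.0795), Hspb1 (0.0772), Aplnr (0.0504), Cd8a (0.076), Csnk1d (0.115) and Nr1d2 (0.0986). On the signals as deposited Creld2, Xbp1, Manf, Sult1a1, Cdkn1a, Lyz2 and Pfkfb3 missed it too (adjusted p = 0.0523 to 0.4). The choice of probe set set the size of some changes. Averaged over all probe sets of the gene, the change was 1.38 for Kcnc1, 1.66 for Tunar, 0.47 for Crem, 0.33 for E2f1, -0.66 for Nrxn3, -1.09 for Cntn4 and -1.19 for Ppp2r2b, which all passed still but were over 1.5 times smaller than with the brightest probe set. Among the genes that did not pass on that average were E2f3 (0.34), Qdpr (0.14) and Slc22a6 (0.62), while Slc17a6 was larger (0.60). Other probe sets of the called genes were read as a further check. Of 1649 such probe sets 1388 changed in the same direction, 654 of them past the threshold, and 261 in the opposite direction, 32 of them past it, none of which belonged to a named gene.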

How the data were processed

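RNA of pineal glands and retinas was isolated with the RNeasy Micro kit, amplified and biotin-labelled with NuGEN Ovation kits and hybridised to Affymetrix Mouse 430 2.0 arrays, per the labels' protocols. The deposited values are linear signal intensities, 1 for each of 45101 probe sets. The submitters' processing notes name GCOS, but its version, scaling and detection calls are not given in the sources used here. Groups and pool numbers came from the sample titles. Of the probe sets 34945 had 1 gene symbol in the platform annotation (18193 genes), 932 several and 9160 none, and the last 2 kinds and 64 control probe sets were left out. No 2 arrays shared more than 0.494% of their values, so none was taken to be a repeat. Their number limits the precision, and no scan dates were used.

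Intensities were quantile-normalised over the 12 pineal arrays as log2(signal + 16), which understates changes of dim genes, and modelled in R 4.3.3 with limma 3.58.1 (lmFit, eBayes with a mean-variance trend, 4 group means, two-sided, Benjamini-Hochberg over 11933 genes, threshold 0.05). The prior degrees of freedom were 6.81, beside 8 residual ones. Retina comparisons used a fit of 8 groups and 24 arrays, quantile-normalised within each tissue. On simulated arrays with known changes at ZT20 in cKO, the fit recovered 32 of 68 changes of 0.5 (log2). It recovered 60 of 64 changes of 1 and 66 of 66 changes of 2. Genes that did not pass may thus still have changed by about 0.5. The simulation changed far fewer genes than the 2174 called, so these shares need not hold for the data.

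Genes named were the 15 largest rises and falls among called genes whose pools did not overlap, passing over clones, predicted and sex-linked genes, the 5 largest tissue differences each way, up to 4 called members of each of 34 gene lists (2 of the brightest where none passed), and a fixed set of pineal and clock genes, of which Asmt, Mat2a and Adrb1 were not analysed here. Of the members of the lists 91 had a probe set and were below the filter. The members, lists and rules were chosen with earlier results of these data known. Promoter sequences are RefSeq's.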

Additional observations from a re-analysis of the deposited data

Results flagged for a closer look

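The night change differed between cKO pineal gland and cKO retina by a limma test of the difference itself for 10 named genes, the 5 largest each way among those that also passed in the gland. E2f8 changed by 4.23 in the cKO gland and 0.19 in the cKO retina, a difference of 4.05 (adjusted p = 2.68e-06). For Gng4 the changes were 3.90 in the cKO gland and -0.0095 in the cKO retina, a difference of 3.91 (adjusted p = 1.73e-06), although retinas expressed the gene at 1152, 981 and 1373 at ZT20 and 1002, 1552 and 1169 at ZT6. Cpm changed by 3.47 in the cKO gland and -0.30 in the cKO retina, a difference of 3.77 (adjusted p = 4.66e-06). Mctp2 changed by 3.12 in the cKO gland and -0.17 in the cKO retina, a difference of 3.29 (adjusted p = 0.00277), with night pools in the gland that ranged from 151 to 989. Tunar changed by 2.88 in the cKO gland and -0.16 in the cKO retina, a difference of 3.04 (adjusted p = 1.46e-04).

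In the other direction, Iglv1 changed by -2.52 in the cKO gland and 0.0032 in the cKO retina, a difference of -2.53 (adjusted p = 0.00701), and in the gland it rests in part on ZT6 pool 1, which gave 1100.3 beside 196 and 426 in the other pools of that time. Iglv1 also met the signal filter through these ZT6 pools, where it was high. Within cKO glands E2f8, Cpm, Mctp2, Tunar, Clca1 and Adgrb3 likewise met the filter only through the time at which they were high. Clca1 changed by -2.65 in the cKO gland and -0.57 in the cKO retina, a difference of -2.09 (adjusted p = 0.00577). Adgrb3 changed by -2.01 in the cKO gland and -0.021 in the cKO retina, a difference of -1.99 (adjusted p = 8.46e-05), Cntn4 by -1.995 in the cKO gland and -0.043 in the cKO retina, a difference of -1.95 (adjusted p = 2.26e-04), and Rln1 by -1.68 in the cKO gland and 0.16 in the cKO retina, a difference of -1.84 (adjusted p = 0.00219). None of these 10 tissue differences lost its call where it was computed again, in up to 14 settings. A gene below the signal filter in a setting was not counted there. No setting left out pineal cKO ZT20 pools 2 and 3 together, so these differences were not computed without both. The genes were filtered by pineal signal alone, and retina signals are given here for Gng4 only. For the others, little night change in the retina and low expression there were not told apart.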

How the results depend on the processing

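The count of 2174 night genes in cKO glands was 1372 on the signals as deposited, 1155 without ZT20 pools 2 and 3, 1649 after median centring, 2179 after scaling to a common trimmed mean and 1382 to 2016 without 1 pool. The control count of 3097 was 1018 on the signals as deposited (62.1% higher, against 47.8%), 1835 after median centring (59.6% higher) and 1923 to 3009 without 1 pool, the lowest without ZT6 pool 1. The count of genotype differences, 0, was 43 as deposited, 2 after median centring, 1 with the pool number as a block and 0 to 3 without 1 pool. The retina count of 64 was 14 as deposited and 23 to 80 without 1 pool, with 34 (without ZT20 pool 2), 25 (ZT6 pool 2) and 41 (ZT6 pool 3) among them. Tissue differences, 491, were 148 as deposited and 318 to 467 without 1 pool, the lowest without pineal ZT20 pool 1. With the pool number as a replicate block 1985 genes passed in cKO glands. Same-numbered pools deviated together at r = 0.142, 0.170 and 0.008, and pools of different number at r = -0.254 to 0.097. The main fit did not take the numbers as pairs, and whether they mark pairs was not settled. Of 2829 values of named genes under other settings 172 lost and 8 gained a call, and 2 called values changed sign: Kcnd3 was 0.029 as a mean over its probe sets and Neurod1 -0.52 without ZT20 pools 2 and 3. The cause of these shifts was not tested, apart from the fewer arrays of the settings that leave pools out.

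Depth on arrays is signal over background, and no detection calls were used here. Genes such as Ifng, Ciart and Adgrb3 gave signals near 100 or less at 1 time, where log2(signal + 16) flattens changes. With 3 pools a group, and 2 of the night pools carrying Neurod1 signal, small changes and differences between genotypes have wide errors. Only 2 times were sampled, so a phase or peak cannot be read.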

Other observations

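Some night changes of cKO glands were also called in cKO retinas. There were 34 such genes, 1.56% of the calls of the gland and 53.1% of those of the retina, of which 14 were higher in both tissues, 18 lower in both and 2 opposite. The genes named here were chosen after their values had been seen. Besides Pgbd1, higher genes included Nr4a1 (1.86 in the gland and 1.32 in the retina), Crem (1.53 in the gland and 0.65 in the retina), the palmitoyltransferase Zdhhc5 (1.12 in the gland and 0.83 in the retina), the phosphatidate phosphatase Lpin2 (0.99 in the gland and 0.35 in the retina), the kinase Sik2 (0.55 in the gland and 0.76 in the retina) and the interferon regulatory factor Irf7 (0.69 in the gland and 1.71 in the retina). Xbp1 (0.49 in the gland and 0.53 in the retina) and Manf (0.39 in the gland and 0.43 in the retina) of the unfolded protein response were among them as well. Lower genes included the clock repressor Ciart (-0.91 in the gland and -1.02 in the retina), the cold-inducible Cirbp (-0.39 in the gland and -0.59 in the retina), the endocytic receptor Ly75 (-0.86 in the gland and -1.49 in the retina), the chromatin protein Hmgb2 (-0.73 in the gland and -0.65 in the retina), the spindle checkpoint gene Mad2l1 (-0.69 in the gland and -0.62 in the retina) and Acadm, an enzyme of fatty acid oxidation (-0.37 in the gland and -0.68 in the retina). The opposite genes were Steap4 (-0.37 in the gland and 0.86 in the retina) and Scamp5 (0.19 in the gland and -0.26 in the retina). The difference between the tissues passed by limma for 4 of the 34 genes.

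The genes with the smallest p for a difference between genotypes, none of which passed after adjustment, were also looked at after their values had been seen. Of the 20 smallest, 15 had a lower night change in cKO, 20 passed in control glands and 5 in cKO glands. Some of the genes are given with their changes. Notch3, a receptor of mural cells, changed by -0.24 in cKO and 0.91 in control glands (limma, adjusted p of the difference = 0.0947). Abcc9, a potassium channel subunit of pericytes, changed by -0.34 in cKO and 0.78 in control glands, the endothelial factor Sox18 by -0.073 in cKO and 0.89 in control glands, and the basement membrane collagen Col4a2 by -0.33 in cKO and 0.54 in control glands. Slfn4, a gene of myeloid cells, changed by 1.07 in cKO and -1.14 in control glands.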
